A study of Mus musculus with 12 samples.

Results

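The genes described here encode basement membrane proteins and the integrins through which cells hold on to matrix. They are 32 of the 35999 gene names in the count table, chosen by symbol with earlier results of these data known. They cover laminin chains, nidogens, perlecan, agrin, fibronectin and the chains of matrix-binding integrins. The samples were subcutaneous tumours of AB1-HA, a transplanted mouse mesothelioma line that carries influenza haemagglutinin. The anti-CD4 group was 6 tumours from mice given 100 µg of anti-CD4 monoclonal antibody on days -3, 0 and 7 around inoculation. The PBS group was 6 tumours from mice given PBS. All hosts were male BALB/c mice 8 to 10 weeks old, and all tumours were cut out on day 9. Both groups carry the same single tumour line, and RNA of a whole tumour comes from tumour cells and host cells together. Groups of 6 mice are stated, but which mouse gave which tumour is not, so the p-values measure the spread between these tumours.

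A basement membrane is a thin sheet of matrix under epithelia and endothelia and around muscle, fat and Schwann cells. Laminins, each a trimer of an alpha, a beta and a gamma chain, form one of its networks, type IV collagen forms another, and nidogens and perlecan tie the networks together. Fibronectin is a fibril-forming protein of interstitial and provisional matrix. Integrins are pairs of an alpha and a beta chain that bind these proteins outside the cell and connect them to actin inside it. In tumours, matrix of this kind surrounds vessels and is made by fibroblasts, vessel cells and, in many tumours, the tumour cells themselves.

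Total counts were 34.45 to 62.06 M in anti-CD4 tumours and 30.75 to 41.93 M in PBS tumours, and the anti-CD4 libraries were deeper (46.4 ± 10 M against 36.1 ± 4.03 M, SD, n = 6 each, exact two-sided permutation p = 0.039). Cd4, the marker of the cells that the antibody removes, averaged 1.31 ± 0.493 CPM (counts scaled to a common library size) in anti-CD4 tumours and 6.31 ± 2.34 CPM in PBS tumours (SD, n = 6 each). Its groups did not overlap, and it fell by 2.26 on the log2 scale (edgeR quasi-likelihood adjusted p = 0.00298). The defining markers of mesothelial cells were uneven: Msln averaged 122 ± 23.9 CPM in anti-CD4 tumours and 126 ± 17.5 CPM in PBS tumours, whereas Wt1 (1.5 and 1.72 CPM) and Calb2 (0.0148 and 0.0937 CPM) were low or near 0. Of the 11 mesothelial markers listed 5 were tested. Their median estimate was 0.26 on the log2 scale, 1 rose (Pdpn, 0.33, adjusted p = 0.0186) and 0 fell. Anti-CD4 tumour 4 stood apart. Of the 12 tumours it had the highest summed CPM of the endothelial, pericyte, fibroblast, skeletal muscle, adipocyte and Schwann cell marker lists. In bulk RNA, fewer cells of a type and less RNA per cell cannot be told apart.

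In anti-CD4 tumours, 2 of the 31 tested genes rose and 0 fell. The 2 were Nid1, which encodes nidogen-1, and Lamc1, the gamma chain of most laminins. The calls come from the edgeR quasi-likelihood test over all 17940 tested genes, with p-values adjusted by Benjamini and Hochberg's method and a threshold of 0.05. Of all tested genes 5.28% were called, 2.95% higher and 2.33% lower. The 2 genes are 6.45% of the 31, of which a single gene is 3.23%, so the count sets this group little apart from the background. At an unadjusted p under 0.05, 11 of the 31 genes were past the threshold, beside 28.0% of all genes. Of these 10 were higher, beside 13.4%, and 1 was lower, beside 14.7%. DESeq2 called 5 higher and 0 lower, beside 7.45% and 6.45% of all genes. Limma voom, run throughout with sample weights that let tumours count unequally, called 8 higher and 1 lower, beside 15.9% and 17.8%. When the log2 library total was added to the model, the edgeR test called 0 of these genes in either direction, beside 0.0279% of all genes. With an adipocyte marker score as a covariate it called 1, beside 1.18%, and without anti-CD4 tumours 3 and 4 it called 3, beside 5.94%. Leaving out 1 tumour gave 0 higher without anti-CD4 tumour 2, 5 or 6 or PBS tumour 2, 3 or 6. It gave 5 without PBS tumour 1, 4 without anti-CD4 tumour 1 and 3 without anti-CD4 tumour 3 or PBS tumour 4. It gave 1 without anti-CD4 tumour 4 or PBS tumour 5. The number of all tested genes called higher also moved in these fits, from 29 without anti-CD4 tumour 2 to 1160 without PBS tumour 1.

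The median log2 fold change of the 31 genes was 0.08, beside 0 over all tested genes, and 20 of the 31 were positive, beside 49.9% of all genes. The groups of 6 overlapped for every one of the 31, whereas 1.93% of all tested genes had every anti-CD4 tumour above every PBS tumour and 1.20% had every anti-CD4 tumour below. In summed CPM, the 32 genes made up 1.13% ± 0.097 of a scaled library in anti-CD4 tumours and 0.943% ± 0.0971 in PBS tumours (SD, n = 6 each). These are percentages of scaled counts and not of each tumour's total count. Fibronectin and perlecan gave most of that signal. Lama1, the alpha chain of the earliest embryonic laminin, was not tested, with 6 counts summed over the anti-CD4 tumours and 16 over the PBS tumours.

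**Figure D1:**
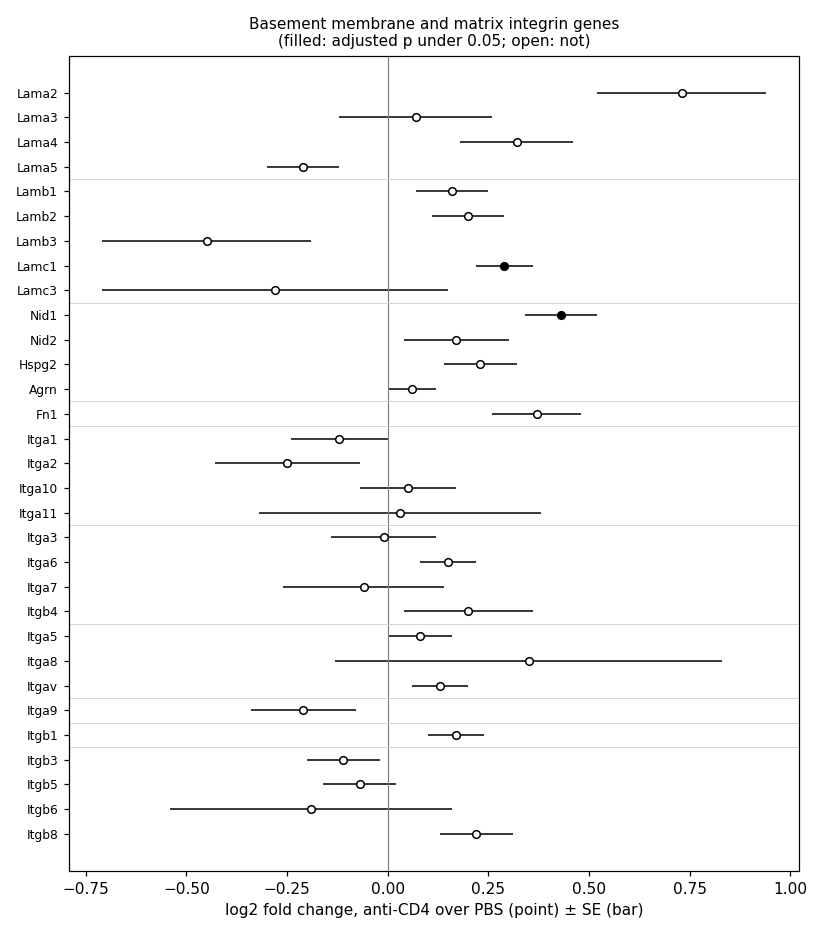
Log2 fold change of anti-CD4 over PBS (horizontal axis) for the 31 tested genes, grouped by role, with bars of ± 1 approximate SE and filled points for called genes. Nid1 (0.43) and Lamc1 (0.29) are the genes called at an adjusted p under 0.05, and Lama2 has a larger but less certain estimate (0.73).

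Among the linkers, Nid1 rose. Nidogen-1 binds the laminin gamma chain and type IV collagen and so joins their networks. In anti-CD4 tumours Nid1 had a lowest level of 385, a median of 461 and a highest of 532 CPM, against 285, 335 and 400 CPM in PBS tumours. The values of 5 of 6 anti-CD4 tumours lay above the highest PBS tumour, and anti-CD4 tumour 3 at 385 CPM lay below it. The means were 456 ± 51.5 CPM and 339 ± 40.3 CPM (SD, n = 6 each), which is 0.43 apart on the log2 scale (SE 0.09, 1.35-fold, edgeR adjusted p = 0.0233, exact two-sided permutation p = 0.00433). The call was kept in 6 of the 12 fits that left out 1 tumour, in which the log2 fold change was 0.38 to 0.48 and the adjusted p 0.0147 to 0.0672. It was lost without anti-CD4 tumour 2 (adjusted p = 0.0672), 5 (0.0645) or 6 (0.0576), or without PBS tumour 2 (0.0504), 3 (0.0596) or 6 (0.055). Of 12 other settings, 10 kept the call. When the library total was added to the model the estimate was 0.34 and its adjusted p 0.259. Nid1 lies at chr13:13437551-13512269 (plus strand, GRCm38), and its exons overlap those of the antisense gene Gm48682. Whether the authors counted reads by strand is not stated in the labels or files, so reads of that pair could not be told apart. The same limit applies to Fn1 (opposite-strand gene Apol7d), Lama2 (Gm48084), Lama3 (Gm29200), Lamc3 (Gm13441), Itga7 (Mettl7b), Itga8 (E030013I19Rik), Itgav (Gm13684) and Itgb4 (B230344G16Rik).

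Nid2, the second nidogen, averaged 36.9 ± 7.84 CPM in anti-CD4 tumours and 32.8 ± 4.02 CPM in PBS tumours (SD, n = 6 each). Its log2 fold change was 0.17 (SE 0.13, adjusted p = 0.396). The exons of Nid2 overlap those of Rtraf on the opposite strand, which has more counts, so the value for Nid2 is uncertain. Per kilobase of exon, Nid1 was 9.41 ± 1.24 times the level of Nid2 in anti-CD4 tumours and 7.79 ± 1.39 times in PBS tumours, with overlapping groups.

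Perlecan (Hspg2), the large heparan sulfate proteoglycan of basement membranes, had a lowest level of 2344, a median of 2650 and a highest of 3006 CPM in anti-CD4 tumours, against 1974, 2211 and 2726 CPM in PBS tumours. The groups overlapped through PBS tumours 1 and 2. The log2 fold change was 0.23 (SE 0.09, adjusted p = 0.105, exact p = 0.0303), short of the threshold, which it passed without PBS tumour 1 (log2 fold change 0.30, adjusted p = 0.0389). Agrin (Agrn), a second heparan sulfate proteoglycan, differed between the groups by less than its spread, at 132 ± 6.72 CPM in anti-CD4 tumours and 126 ± 9.95 CPM in PBS tumours (log2 fold change 0.06, SE 0.06, adjusted p = 0.483).

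Of the 5 tested beta and gamma laminin chains, Lamc1 rose and the rest did not pass the test. In anti-CD4 tumours Lamc1 had a lowest level of 671, a median of 809 and a highest of 829 CPM, against 540, 644 and 707 CPM in PBS tumours. As for Nid1, anti-CD4 tumour 3 alone lay within the PBS range. The means were 788 ± 59.2 CPM and 644 ± 58.7 CPM (SD, n = 6 each), which is 0.29 apart on the log2 scale (SE 0.07, 1.22-fold, adjusted p = 0.0373, exact p = 0.00649). This call was less stable than that of Nid1. It was kept in 4 of the 12 fits without 1 tumour, whose adjusted p ran from 0.0217 to 0.107. The call was lost without anti-CD4 tumour 2 (adjusted p = 0.107), 4 (0.0562), 5 (0.0895) or 6 (0.0853), or without PBS tumour 2 (0.0679), 3 (0.0811), 5 (0.0832) or 6 (0.0747). It was also lost in 4 of 12 other settings, among them when the library total was added to the model (log2 fold change 0.23, adjusted p = 0.326), with an adipocyte marker score as a covariate (0.0735) and under upper quartile scaling (0.0548). Lamc1 lies at chr1:153218922-153332786 (minus strand, GRCm38).

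None of the other beta and gamma chains was called. Lamb1 averaged 438 ± 48.9 CPM in anti-CD4 tumours and 392 ± 49.2 CPM in PBS tumours (log2 fold change 0.16, SE 0.09, adjusted p = 0.249). Lamb2, the beta chain of synaptic and many vascular laminins, averaged 139 ± 14.1 CPM in anti-CD4 tumours and 121 ± 16.7 CPM in PBS tumours (log2 fold change 0.20, SE 0.09, adjusted p = 0.164). Lamb3, a chain of the epidermal laminin, was low, at 1.56 ± 0.417 CPM in anti-CD4 tumours and 2.13 ± 0.778 CPM in PBS tumours (log2 fold change -0.45, SE 0.26, adjusted p = 0.257). Lamc3 averaged under 1 CPM in both groups (0.299 ± 0.248 and 0.369 ± 0.144 CPM), and its adjusted p was 0.692.

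The laminin alpha chains, which carry the main integrin-binding end of the trimer, had estimates on both sides of 0, and none was called by edgeR. Lama2, the alpha chain of muscle and peripheral nerve basement membranes, had the largest estimate of the 31 genes. In anti-CD4 tumours it had a lowest level of 39.4, a median of 44.8 and a highest of 78.6 CPM, against 22.1, 26.9 and 48 CPM in PBS tumours. The overlap came from PBS tumour 4 at 48 CPM, and the highest value was that of anti-CD4 tumour 4. The log2 fold change was 0.73 (SE 0.21, 1.66-fold) and missed the threshold (edgeR adjusted p = 0.0606, exact p = 0.0108). DESeq2 called it (adjusted p = 0.00375), as did limma voom (0.00544), and edgeR called it without anti-CD4 tumour 1 (log2 fold change 0.77, adjusted p = 0.0486) or PBS tumour 4 (0.91, adjusted p = 0.0215). Without anti-CD4 tumour 4 the log2 fold change was 0.55 (adjusted p = 0.0753).

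Lama4, the alpha chain of endothelial, fat and muscle basement membranes, had a lowest level of 30.6, a median of 39.5 and a highest of 60.8 CPM in anti-CD4 tumours, against 26.3, 34.1 and 37.8 CPM in PBS tumours. Anti-CD4 tumour 4 was again the highest, and the groups overlapped (log2 fold change 0.32, SE 0.14, adjusted p = 0.155, exact p = 0.0584). Lama5, the alpha chain of most adult epithelial and vascular basement membranes, had a negative estimate. Its values had a lowest level of 39.9, a median of 45.8 and a highest of 57.9 CPM in anti-CD4 tumours, against 48.7, 52 and 62.9 CPM in PBS tumours. The values of 5 of 6 anti-CD4 tumours lay below the lowest PBS tumour, the exception being tumour 4, but the difference missed the threshold (log2 fold change -0.21, SE 0.09, adjusted p = 0.14, exact p = 0.0606). Lama3, the alpha chain of epidermal laminin, averaged 2.92 ± 0.788 CPM in anti-CD4 tumours and 2.77 ± 0.588 CPM in PBS tumours (adjusted p = 0.818).

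**Figure D2:**
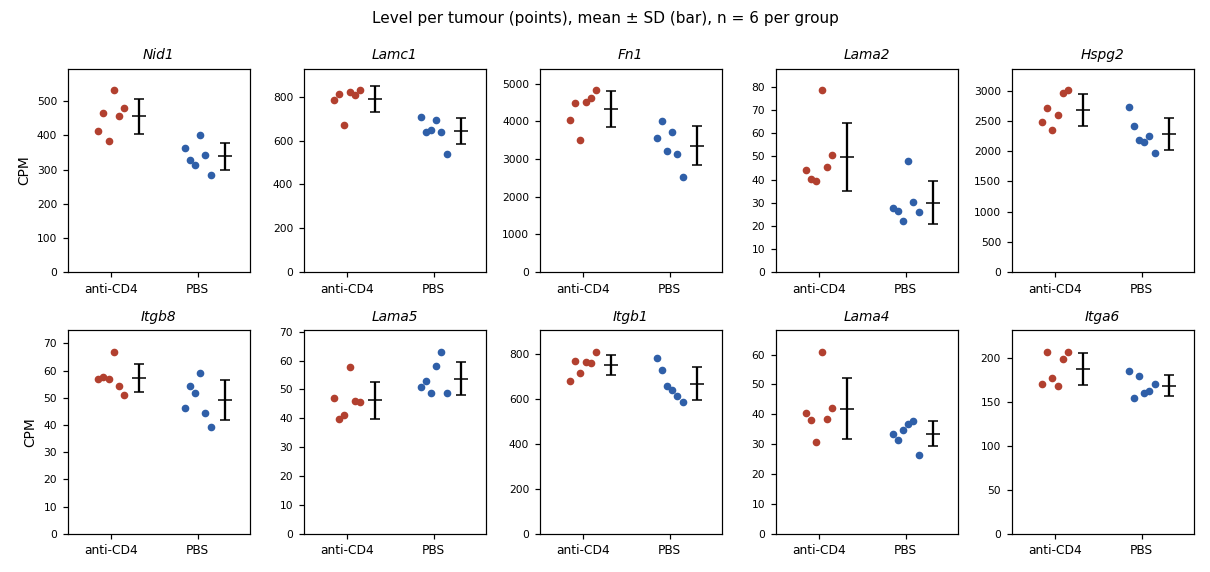
TMM-scaled CPM of each tumour (vertical axes from 0, anti-CD4 left and PBS right in each panel) for the 10 genes with the smallest p, with the mean and SD of each group of 6. The groups overlap in every panel; Nid1 and Lamc1 overlap through anti-CD4 tumour 3 alone, and anti-CD4 tumour 4 is the highest point for Lama2 (78.6) and Lama4 (60.8).

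Because Lama2 and Lama4 had positive estimates and Lama5 a negative one, the makeup of the alpha chains was described per tumour from CPM per kilobase of exon, with no test. Lama5 gave 37.9% ± 2.64 of the alpha chain signal in anti-CD4 tumours and 49.4% ± 2.73 in PBS tumours (SD, n = 6 each). The ranges did not overlap, at 33.4% to 41% in anti-CD4 tumours and 44.4% to 51.7% in PBS tumours. Lama2 gave 27.8% ± 2.15 in anti-CD4 tumours and 18.9% ± 3.51 in PBS tumours, and these groups overlapped through PBS tumour 4 alone. The share of Lama4 was 31.8% ± 1.71 in anti-CD4 tumours and 29% ± 2.43 in PBS tumours. Lama3 gave 2.54% in anti-CD4 tumours and 2.68% in PBS tumours, and Lama1 gave 0.0252% and 0.0758%. The shares of a tumour are parts of one total, so higher Lama2 or Lama4 lowers the Lama5 share. The CPM of Lama5 itself overlapped between the groups.

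The level of Lama2 relative to Lama5 was 0.739 ± 0.11 in anti-CD4 tumours and 0.387 ± 0.0956 in PBS tumours, and that of Lama4 relative to Lama5 was 0.844 ± 0.0992 in anti-CD4 tumours and 0.588 ± 0.0563 in PBS tumours. In both ratios the lowest anti-CD4 tumour lay above the highest PBS tumour, and both were chosen after the values had been seen. With the length of the longest transcript in place of all exons, the Lama2 share differed by 8.63 points in place of 8.87, the Lama4 share by 1.26 in place of 2.79 and the Lama5 share by -9.65 in place of -11.5. The order of the chains depended on that choice: with that length Lama4 was the leading alpha chain, at 41.9% in anti-CD4 tumours and 40.7% in PBS tumours, and Lama5 gave 25.1% and 34.8%. The beta chains showed no such shift. Lamb1 gave 65.6% ± 4.15 of the beta chain signal in anti-CD4 tumours and 66.1% ± 3.23 in PBS tumours.

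**Figure D3:**
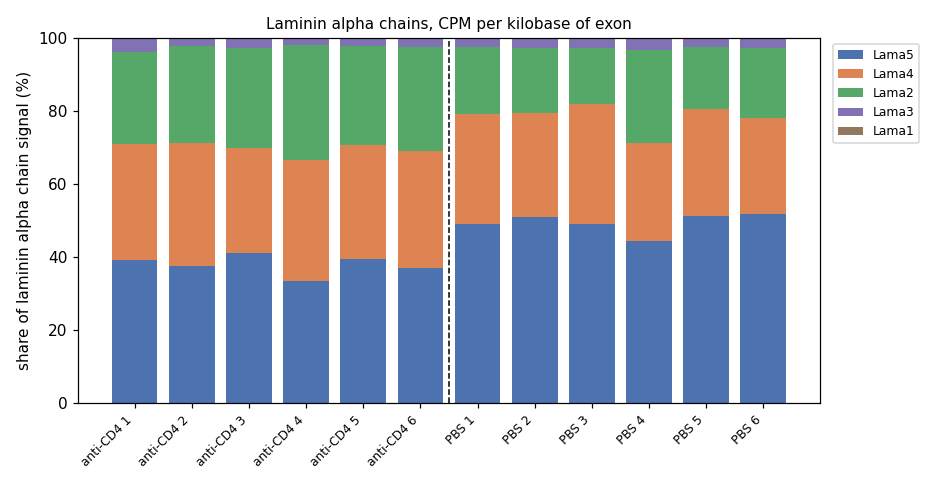
Share of the laminin alpha chain signal (percent of summed CPM per kilobase of exon, vertical axis) given by each alpha chain in each of the 12 tumours, anti-CD4 left and PBS right. The Lama5 share is 33.4% to 41% in anti-CD4 tumours and 44.4% to 51.7% in PBS tumours, with no overlap.

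Promoter sequences are shown for the nidogen that rose and for the pair of alpha chains with opposite estimates, as context for their transcription. They are RefSeq windows of the bases before the start given there for each gene, on GRCm38.p6, given 5′ to 3′ on the gene's strand, with GC boxes (GGGCGG, or CCGCCC for the other strand) in capitals. The Nid1 window covers 199 bases at chr13:13437352-13437550 (plus strand), the Lama2 window 250 bases at chr10:27616943-27617192 (minus strand) and the Lama5 window 250 bases at chr2:180225860-180226109 (minus strand).
Nid1: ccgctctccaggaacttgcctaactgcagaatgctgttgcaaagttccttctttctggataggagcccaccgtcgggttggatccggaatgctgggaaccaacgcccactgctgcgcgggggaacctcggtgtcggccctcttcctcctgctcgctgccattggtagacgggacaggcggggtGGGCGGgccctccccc
Lama2: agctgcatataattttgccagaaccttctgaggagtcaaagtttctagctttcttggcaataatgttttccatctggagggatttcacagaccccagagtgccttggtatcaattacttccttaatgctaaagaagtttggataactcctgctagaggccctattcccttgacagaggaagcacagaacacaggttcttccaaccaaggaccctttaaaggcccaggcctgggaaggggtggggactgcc
Lama5: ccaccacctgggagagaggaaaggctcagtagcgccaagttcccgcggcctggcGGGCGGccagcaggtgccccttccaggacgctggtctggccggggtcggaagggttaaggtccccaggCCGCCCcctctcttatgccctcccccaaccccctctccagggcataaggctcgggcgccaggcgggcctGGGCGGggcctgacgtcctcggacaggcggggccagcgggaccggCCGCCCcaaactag

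The Lama5 window holds 4 GC boxes and has 72.4% G and C. The Nid1 window holds 1 GC box and 1 CCAAT, and its 250 bases have 64.4% G and C. The Lama2 window holds no match to the GC box, CCAAT or TATAAA on either strand and has 47.2% G and C, below the median of 52.4% over all 32841 windows of 250 bases. That Lama2 window lies upstream of one annotated transcript start and inside the span of the gene, which has other starts. Of the 32 genes, 21 had an entry. Among their 25 windows, 11 held a GC box, 4 a CCAAT and 0 a TATAAA, beside 32.7%, 33.9% and 12.4% of all windows. These matches are letters in a window and say nothing of which factors bind there.

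Fibronectin (Fn1) had the highest level per kilobase of the 32 genes, at 371 ± 41.4 CPM per kilobase in anti-CD4 tumours and 288 ± 44.5 in PBS tumours. In CPM, anti-CD4 tumours had a lowest level of 3497, a median of 4500 and a highest of 4827, against 2533, 3379 and 4021 in PBS tumours. The lowest anti-CD4 tumour was again number 3, and PBS tumour 6 was the lowest of all. The log2 fold change was 0.37 (SE 0.11, edgeR adjusted p = 0.0589, exact p = 0.013), short of the threshold, and DESeq2 (adjusted p = 0.0105) and limma voom (0.00586) called it. The edgeR test also called it without anti-CD4 tumour 1 (log2 fold change 0.39) or 3 (0.43, adjusted p = 0.048) or PBS tumour 1 (0.39, adjusted p = 0.0482). Fn1 lies at chr1:71585520-71653200 (minus strand, GRCm38).

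Of the 17 integrin chains, all tested, 0 passed the edgeR test in either direction. Among them 3 (17.6%, beside 28.0% of all genes) had an unadjusted p under 0.05: Itgb1, Itga6 and Itgb8, each with a positive estimate. DESeq2 called 0, and limma voom called 2 higher, Itgb1 and Itga6 (11.8%, beside 15.9% of all genes). Itgb1, the beta chain shared by most matrix integrins, had a lowest level of 679, a median of 759 and a highest of 806 CPM in anti-CD4 tumours, against 584, 646 and 778 CPM in PBS tumours. PBS tumours 1 and 2 lay inside the anti-CD4 range (log2 fold change 0.17, SE 0.07, adjusted p = 0.144, exact p = 0.0433). Relative to the summed level per kilobase of its alpha partners among these integrin chains, Itgb1 was 1.45 ± 0.0397 in anti-CD4 tumours and 1.37 ± 0.135 in PBS tumours, with overlapping groups. Its partner Itga4, listed with the leukocyte integrins, was not in that sum.

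Among the laminin receptors, Itga6 had a lowest level of 168, a median of 188 and a highest of 207 CPM in anti-CD4 tumours, against 155, 167 and 186 CPM in PBS tumours. Its estimate was small and missed the threshold (log2 fold change 0.15, SE 0.07, adjusted p = 0.158, exact p = 0.0671). Itga3, a second epithelial laminin receptor chain, did not differ beyond its spread, at 61.1 ± 10.7 CPM in anti-CD4 tumours and 61.6 ± 10.1 CPM in PBS tumours (adjusted p = 0.964). Itgb4, which pairs with Itga6 in hemidesmosomes, averaged 22.7 ± 5.28 CPM in anti-CD4 tumours and 19.7 ± 4.23 CPM in PBS tumours (adjusted p = 0.42). Itga7, the laminin receptor chain of muscle, averaged 11.2 ± 3.81 CPM in anti-CD4 tumours and 11.7 ± 2.22 CPM in PBS tumours (adjusted p = 0.86).

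The collagen-binding alpha chains gave estimates on both sides of 0. Itga1 averaged 28 ± 6.5 CPM in anti-CD4 tumours and 30.4 ± 2.22 CPM in PBS tumours (log2 fold change -0.12, adjusted p = 0.539). Itga2, known on platelets and epithelia, was low in both groups, at 5.43 ± 1.08 CPM in anti-CD4 tumours and 6.43 ± 1.83 CPM in PBS tumours (log2 fold change -0.25, adjusted p = 0.381). Itga10, a chain of cartilage, averaged 13 ± 2.24 CPM in anti-CD4 tumours and 12.6 ± 1.42 CPM in PBS tumours (adjusted p = 0.813). Itga11, a chain of fibroblasts, averaged 4.27 ± 1.83 CPM in anti-CD4 tumours and 4.18 ± 2.41 CPM in PBS tumours (adjusted p = 0.961). Itga9, which binds tenascin and other ligands, averaged 18.4 ± 3.12 CPM in anti-CD4 tumours and 21.3 ± 3.89 CPM in PBS tumours (log2 fold change -0.21, adjusted p = 0.287).

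Of the chains that bind the RGD motif of fibronectin and vitronectin, Itgav and Itga5 were abundant. Itgav averaged 511 ± 46.3 CPM in anti-CD4 tumours and 467 ± 43.7 CPM in PBS tumours (log2 fold change 0.13, SE 0.07, adjusted p = 0.257). Itga5, the partner of Itgb1 in the main fibronectin receptor, averaged 187 ± 11.9 CPM in anti-CD4 tumours and 176 ± 22.4 CPM in PBS tumours (log2 fold change 0.08, SE 0.08, adjusted p = 0.485). Itga8, a chain of smooth muscle and mesangial cells, averaged 0.972 ± 0.922 CPM in anti-CD4 tumours and 0.769 ± 0.359 CPM in PBS tumours. Its mean in the anti-CD4 group rested on tumour 4 at 2.85 CPM, and its log2 fold change was 0.35 (adjusted p = 0.658) and -0.37 without that tumour.

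Itgb8, a partner of alpha V that takes part in releasing latent TGF-beta, had a lowest level of 51.2, a median of 56.9 and a highest of 66.8 CPM in anti-CD4 tumours, against 39.1, 49 and 59.1 CPM in PBS tumours. The groups overlapped and the estimate missed the threshold (log2 fold change 0.22, SE 0.09, adjusted p = 0.139, exact p = 0.0563). The rest of the alpha V partners had estimates below 0 that also missed it: Itgb3, the beta chain shared with platelets (log2 fold change -0.11, adjusted p = 0.463), Itgb5, a vitronectin receptor chain (log2 fold change -0.07, adjusted p = 0.612), and Itgb6, a chain of epithelia (log2 fold change -0.19, adjusted p = 0.749). Itgb5 averaged 286 ± 25.3 CPM in anti-CD4 tumours and 301 ± 41.5 CPM in PBS tumours, Itgb3 15.1 ± 1.59 CPM and 16.2 ± 2 CPM, and Itgb6 2.7 ± 1.53 CPM and 3.09 ± 1.16 CPM. Per kilobase and with no test, Itgb1 gave 67.4% ± 1.72 of the summed beta partners of alpha V in anti-CD4 tumours and 63.9% ± 0.772 in PBS tumours, and Itgb5 gave 29.6% ± 1.78 in anti-CD4 tumours and 33.1% ± 0.883 in PBS tumours. Itgb1 also pairs with other alpha chains, so these are shares of RNA and not of alpha V pairs.

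Levels spanned a wide range. Per kilobase of exon, perlecan (187 ± 18.4 CPM per kilobase in anti-CD4 tumours and 159 ± 18.1 in PBS tumours) and Itgb1 (183 ± 10.8 and 163 ± 17.9) followed fibronectin and did not differ from each other beyond their spread. Lamc1 (95.2 ± 7.15 and 77.8 ± 7.1) and Itgb5 (80.5 ± 7.11 and 84.6 ± 11.7) came next and changed places between the groups. Nid1 (65.6 ± 7.42 and 48.8 ± 5.8), Itgav (47.6 ± 4.31 and 43.5 ± 4.07) and Lamb1 (44.1 ± 4.93 and 39.5 ± 4.96) followed. This order depended on the length used. Per kilobase of the longest transcript, Itgb1 was above perlecan in both groups (196 and 174 CPM per kilobase for Itgb1, 189 and 161 for perlecan), and Nid1 (74.8 and 55.6), Lamb1 (75.7 and 67.7) and Itgav (72.5 and 66.2) were close in anti-CD4 tumours, with Nid1 the lowest of them in PBS tumours. The mean of each laminin alpha chain over a group was below 5 CPM per kilobase of merged exons.

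**Figure D4:**
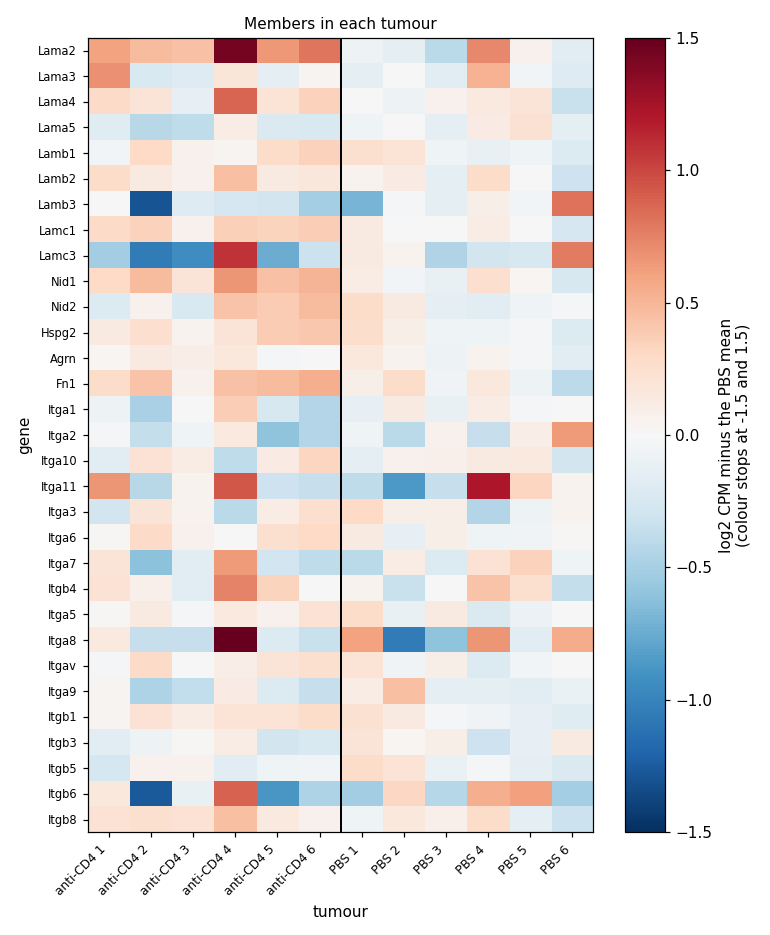
Log2 CPM of each of the 31 tested genes (rows) in each tumour (columns, anti-CD4 left and PBS right), as the difference from the mean of the PBS tumours. The Lama2 row is highest in anti-CD4 tumour 4, and no row separates all anti-CD4 tumours from all PBS tumours.

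Markers of other cell types moved with some of these genes. Of 12 fibroblast markers, 3 rose (Lum, Pdgfra and Cd34) and 0 fell, and their summed level was 27674 to 35221 CPM in anti-CD4 tumours and 15332 to 27760 CPM in PBS tumours. Fibroblasts make fibronectin, nidogen and many laminin chains, and the part of these cells in the results for Nid1, Lamc1 and Fn1 was not tested. None of the endothelial (0 of 12), skeletal muscle (0 of 12), adipocyte (0 of 10), pericyte and smooth muscle (0 of 10) or Schwann cell (0 of 8) markers was called. The summed level was 196 to 336 CPM in anti-CD4 tumours and 223 to 293 CPM in PBS tumours for endothelial cells, and 415 to 2098 CPM and 267 to 1965 CPM for skeletal muscle. It was 214 to 481 CPM in anti-CD4 tumours and 178 to 374 CPM in PBS tumours for pericytes and smooth muscle, 48.8 to 608 CPM and 105 to 371 CPM for adipocytes, and 108 to 255 CPM and 97.3 to 210 CPM for Schwann cells. Of 12 keratinocyte markers 5 were tested and 0 called, with a summed level of 7.73 to 25.9 CPM in anti-CD4 tumours and 14.2 to 31.3 CPM in PBS tumours, and the defining Krt5 (0.0118 and 0 CPM) and Krt14 (0.0106 and 0.0123 CPM) were near 0. With the skeletal muscle score as a covariate, 4 of the 31 genes were called higher (Nid1, Lamc1, Lama2 and Itga6) and 1 lower (Lama5), beside 5.60% and 4.87% of all genes.

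The relation of 7 genes to the markers of a cell type known to express them was measured over the 12 tumours, with p-values from 100000 permutations adjusted over the 7 pairs. Itga7 followed the skeletal muscle score (Pearson r = 0.78, permutation p = 0.00373, adjusted p = 0.0261; Spearman rho = 0.74, adjusted p = 0.0553). Within groups r was 0.90 in anti-CD4 tumours (exact p = 0.00556, adjusted p = 0.0194) and 0.87 in PBS tumours (exact p = 0.0347, adjusted p = 0.243), and it was 0.77 without the 2 tumours farthest from the median score. Itga11 had r = 0.63 with the fibroblast score (adjusted p = 0.0485), 0.91 within anti-CD4 tumours, 0.76 within PBS tumours and 0.67 without the 2 farthest tumours (adjusted p = 0.112), but its rho of 0.63 had an adjusted p of 0.0732. Lama4 had r = 0.71 with the endothelial score (adjusted p = 0.0424; rho = 0.61, adjusted p = 0.0732), which was 0.89 within anti-CD4 tumours (exact p = 0.0194, adjusted p = 0.034) and 0.39 within PBS tumours. It was 0.45 without the 2 farthest tumours, anti-CD4 tumours 3 and 4, so the relation over all tumours rested on those. The r of 0.67 between Itga8 and pericyte markers (adjusted p = 0.0471) became -0.04 without the 2 farthest tumours, tumour 4 of each group, and rested on them. Within anti-CD4 tumours, tumour 4 included, r was 0.95 (exact p = 0.00139, adjusted p = 0.00972) and rho 1 (adjusted p = 0.0194), and within PBS tumours r was 0.14. Lama2 with skeletal muscle (r = 0.56, adjusted p = 0.0827), Lamb3 with keratinocytes (0.41, adjusted p = 0.216) and Itgb4 with keratinocytes (0.04, permutation p = 0.893) did not pass. No Spearman rho over the 12 tumours passed after adjustment.

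The rest of the matrix and adhesion machinery was read from 6 lists. Of their 105 tested genes, 18 rose and 0 fell, beside 2.95% and 2.33% of all tested genes. These lists were chosen with earlier results of these data known, so the difference in shares is not a test of the lists. Of the 105, 77 were positive, beside 49.9% of all genes, and the median log2 fold change was 0.19. DESeq2 called 31 of them higher and 3 lower, beside 7.45% and 6.45% of all genes. Limma voom called 43 and 6, beside 15.9% and 17.8%. Of 13 listed collagen chains, type IV among them, Col6a3, a chain of the beaded-filament collagen type VI, rose. It averaged 1509 ± 192 CPM in anti-CD4 tumours and 1078 ± 164 CPM in PBS tumours (log2 fold change 0.49, SE 0.11, adjusted p = 0.0323). The chains of the type IV network itself, Col4a1 (log2 fold change 0.19, adjusted p = 0.276) and Col4a2 (0.15, adjusted p = 0.389), did not pass.

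Of 21 further basement membrane components, 5 rose and 0 fell, with a list median of 0.32. Among those that rose were Fbln5, an elastic fibre protein (log2 fold change 0.42, adjusted p = 0.0133), Fras1, a protein of embryonic epithelial basement membranes (log2 fold change 0.38, adjusted p = 0.0163), Sparc, a collagen-binding glycoprotein (log2 fold change 0.37, adjusted p = 0.0341), and Pxdn, the peroxidase that cross-links type IV collagen (log2 fold change 0.28, adjusted p = 0.0423). Of 19 listed matrix receptors other than integrins and parts of their complexes, 5 rose and 0 fell. Sdc2, a cell surface heparan sulfate proteoglycan, had a lowest level of 209, a median of 229 and a highest of 240 CPM in anti-CD4 tumours, against 146, 171 and 197 CPM in PBS tumours, and the groups did not overlap (log2 fold change 0.39, adjusted p = 0.0115). Its call was kept in all 12 fits without 1 tumour. The others were Sgcb (log2 fold change 0.30, adjusted p = 0.0186) and Sspn (log2 fold change 0.37, adjusted p = 0.0283), parts of the dystrophin-associated complex, Ddr2, a collagen receptor kinase (log2 fold change 0.25, adjusted p = 0.0415), and Cd44, the hyaluronan receptor (log2 fold change 0.22, adjusted p = 0.0429). Dag1, which encodes dystroglycan, the laminin receptor of that complex, missed the threshold (log2 fold change 0.25, adjusted p = 0.058).

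Inside the cell, 4 of 24 integrin activators and focal adhesion proteins rose and 0 fell. Lims1, which encodes the adaptor PINCH, had a lowest level of 189, a median of 219 and a highest of 243 CPM in anti-CD4 tumours, against 162, 175 and 183 CPM in PBS tumours, with no overlap (log2 fold change 0.33, adjusted p = 0.0133), and was called in all 12 fits without 1 tumour. The others were Fermt2, an integrin-activating kindlin (log2 fold change 0.29, adjusted p = 0.0217), Parva, the PINCH complex partner parvin (log2 fold change 0.27, adjusted p = 0.0307), and Nedd9, a docking protein (log2 fold change 0.21, adjusted p = 0.0351). Of 19 other ligands of matrix integrins, 3 rose and 0 fell: Tgfb3 (log2 fold change 0.31, adjusted p = 0.021), Thbs1, which encodes thrombospondin-1 (log2 fold change 0.49, adjusted p = 0.0263), and Tnc, which encodes tenascin-C (log2 fold change 0.59, adjusted p = 0.038). The 9 tested leukocyte and platelet integrins all had estimates below 0 (median log2 fold change -0.34) and 0 were called in either direction. The pair with the smallest p were Itgax, a chain of dendritic cells and macrophages (-0.95, SE 0.33, adjusted p = 0.0981), and Itga4 (-0.25, SE 0.09, adjusted p = 0.1). Of 8 leukocyte markers 0 rose and 1 fell, with a summed level of 548 to 729 CPM in anti-CD4 tumours and 546 to 996 CPM in PBS tumours, and of 10 T cell markers 0 rose and 4 fell, with 10.4 to 43.5 CPM and 35.9 to 74.5 CPM; their part in the integrin values was not tested. Of the 18 called genes, all but Sdc2 and Lims1 kept their call in 3 to 11 of the 12 fits without 1 tumour, and 0 were called when the library total was added to the model.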

How the data were processed

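The labels' protocols state that RNA of the 12 tumours was sequenced as pairs of 100-base reads after removal of rRNA and globin RNA. Kallisto (version not stated), bcl2fastq 2.20.0.422 and GRCm38.p6 come from the submitters' processing notes. The authors deposited an estimated count per gene name, with values that are not whole, as kallisto writes them; annotation release, gene summing and strand setting are not stated in the labels or the file. Of 35999 names, 35903 matched GENCODE M21 on GRCm38 by name, the source of coordinates and exon lengths, and 26 had become dates (0.227% of counts). Treatment labels gave the groups.

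Counts were rounded, filtered with filterByExpr, scaled by TMM and tested with edgeR 4.0.16 (R 4.3.3; quasi-likelihood F test, robust, no covariate; 17940 genes; Benjamini-Hochberg adjustment over all of them). SEs are the log2 fold change over the square root of F and are approximate. CPM are TMM-scaled; levels per kilobase use merged exons. Single values were also compared by exact two-sided permutation over 924 assignments (smallest p 0.00216). Alternatives were DESeq2 1.42.0, limma 3.58.1 voom with sample weights, other scalings, filters and covariates, thinning, a replicate block and leaving out tumours. Chi-square per degree of freedom between tumours of a group was 8.01 to 61.1, so no library was a copy.

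The text names every member, gives values per tumour for the called ones and those of smallest p up to 10, and names up to 6 called genes of each pathway list, or the pair of smallest p. A called gene of those lists is counted but not reported here. The members and lists were chosen with earlier results of these data known. Scripts were tested on simulated data.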

Additional observations from a re-analysis of the deposited data

Results flagged for a closer look

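Single tumours that lay far from the rest of their group were looked for in 64 groups of 6, a member in a treatment each (the gap to the nearest tumour over the group's range, above Dixon's critical value at the 95% level), and 7 were found, where chance flags about 1 in 20 groups. Of the 7, 3 were in anti-CD4 tumour 4. Lama2 had 78.6 CPM in anti-CD4 tumour 4, with the others at 39.4 to 50.8 CPM, and 48 CPM in PBS tumour 4, with the others at 22.1 to 30.3 CPM. Lama3 had 4.41 CPM in anti-CD4 tumour 1, with the others at 2.32 to 3.1 CPM, and 3.94 CPM in PBS tumour 4, with the others at 2.38 to 2.74 CPM. Lamc1 was low in anti-CD4 tumour 3, at 671 CPM with the others at 785 to 829 CPM. Lamc3 had 0.796 CPM in anti-CD4 tumour 4, with the others at 0.145 to 0.272 CPM. Itga8 had 2.85 CPM in anti-CD4 tumour 4, with the others at 0.532 to 0.778 CPM. The summed level of skeletal muscle markers was 2098 CPM in anti-CD4 tumour 4 and 1308 CPM in PBS tumour 4. It was also high in anti-CD4 tumour 1 (1549 CPM) and PBS tumour 5 (1965 CPM), where Lama2 had 44.1 and 30.3 CPM. The value in anti-CD4 tumour 1 lay inside the range of the rest of its group. That in PBS tumour 5 was the highest of its group after PBS tumour 4. The summed level of Schwann cell markers was 255 CPM in anti-CD4 tumour 4, with the others of its group at 108 to 150 CPM. In PBS tumour 4 it was 210 CPM, with the others at 97.3 to 163 CPM. The fibroblast sum was also the highest of its group in each of these tumours (35221 and 27760 CPM, the latter beside 27733 CPM in PBS tumour 1). The relation of Lama2 to those 2 lists was not tested. With the skeletal muscle score as a covariate the log2 fold change of Lama2 was 0.64 (edgeR adjusted p = 0.0411), and its r with that score over the 12 tumours was 0.56. Within groups r was 0.54 in anti-CD4 tumours and 0.67 in PBS tumours. The Spearman rho within PBS tumours was 0.89 (exact permutation p = 0.0333, adjusted p = 0.204). Without the 2 tumours farthest from the median score r was 0.20.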

How the results depend on the processing

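The number of genes called over the whole table moved widely with the setting, and the cause was not tested. Beside 529 higher and 418 lower, DESeq2 called 1337 and 1157, limma voom 2848 and 3200, an adipocyte score as covariate 129 and 83, a muscle score 1004 and 873, the log2 library total 0 and 5, no filter 272 and 251, and a replicate block 19 and 14. Upper quartile scaling called 179 higher, and leaving out both anti-CD4 tumours 3 and 4 called 705 lower. Leaving out 1 tumour gave 29 to 1160 higher and 31 to 1480 lower.

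Beside 2 basement membrane and integrin genes higher, DESeq2 called 5, voom 8, the adipocyte score 1, the muscle score 4, the library total 0, the replicate block 1 (Lama2, adjusted p = 0.00712) and upper quartile scaling 1, and leaving out 1 tumour called 0 to 5. Beside 0 lower, voom and the muscle score each called 1 (Lama5), and leaving out 1 tumour called 0. Beside 18 higher in the pathway lists, DESeq2 called 31, voom 43, the library total 0, the block 1 and upper quartile scaling 10, and leaving out 1 tumour called 3 to 28. Beside 0 lower in them, DESeq2 called 3, voom 6, the muscle score 1, upper quartile scaling 1 and the fit without anti-CD4 tumours 3 and 4 called 3, and leaving out 1 tumour called 0 to 1. Same-numbered tumours correlated at -0.409 to 0.229 and none best with its own number, so expression showed no pairing by number. Such correlations cannot exclude that same-numbered tumours were handled together, which the labels do not state. Under the block the edgeR adjusted p was 0.0568 for Nid1 and 0.104 for Lamc1.

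Of 369 single-gene values under one changed setting, 328 kept direction and call and 20 changed sign, none of them called under either. These were Lama3 (-0.003 with voom, -0.01 with the muscle score), Nid2 (-0.16 with the library total), Itga10 (-0.08 with the adipocyte score, -0.002 with upper quartile scaling), Itga11 (-0.08, -0.19, -0.02 and -0.20 with voom, muscle, upper quartile and without tumours 3 and 4), Itga3 (0.07, 0.01, 0.05 and 0.07 with voom, no filter, muscle and without those tumours), Itga7 (0.08 with the adipocyte score and 0.08 with the library total), Itga5 (-0.06), Itgav (-0.01) and Itgb6 (0.05) with the library total, Itga8 (-0.33 without tumours 3 and 4) and Itgb5 (0.01 with voom). Leaving out 1 tumour gave Lama3 -0.07 to 0.20, Itga10 -0.01 to 0.12, Itga11 -0.18 to 0.38, Itga3 -0.09 to 0.06, Itga7 -0.25 to 0.03 and Itga8 -0.37 to 0.48. Among the marker relations, r without the 2 farthest tumours and within PBS tumours was 0.77 and 0.87 for Itga7, 0.45 and 0.39 for Lama4, -0.04 and 0.14 for Itga8 and 0.67 and 0.76 for Itga11; within PBS tumours it was -0.49 for Itgb4 and -0.10 for Lamb3. The depth of Lama1, Lamc3 and Itga8, at about 1 CPM or less, limits their values.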
